A study of Mus musculus with 10 samples.

Results

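Complement and epithelial defence genes were followed in mouse collecting duct cells with and without Camk2d, the gene of the calcium/calmodulin-dependent kinase CAMK2D. The 9 genes, of 55414 in the table, were C3, Cfb, C1s1, Cd55, Cd59a, Lcn2, Cxcl1, Ccl2 and Slpi. They were taken by gene symbol. The set was selected on the C3 level, which was low in KO clones 1 and 2 and not in the other clones, so the C3 values of KO and intact samples are given below without a test.

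The cells were mpkCCD, an immortalized line of mouse cortical collecting duct with a C57BL/6 background in the labels. All 10 samples were grown on permeable supports with the vasopressin analog dDAVP at 0.1 nM for 7 days, 4 of them in complete medium and the last 3 in a serum-free simple medium, and both media held dexamethasone, a glucocorticoid. As controls with intact Camk2d, 5 samples represented 3 lines, namely the parental line (1 sample) and 2 intact clones (2 samples each), which had gone through the Cas9 transfection and kept an unmutated Camk2d. The 5 Camk2d-KO samples were 5 lines grown from single sorted cells, in which Cas9 had been directed by a guide to exon 8 (KO clones 1 and 2) or to exon 9 (KO clones 3, 4 and 5). Each KO clone is 1 line with 1 sample, so a value of a KO clone has no replicate of its own. The labels do not say whether both samples of an intact clone were separate cultures, and p-values measure only the spread between these samples.

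Complement is a cascade of blood and tissue proteins that marks microbes and damaged cells and can open pores in their membranes. All of its routes meet at C3, which is cleaved so that one fragment binds to surfaces. Host cells carry membrane regulators that stop the cascade on their own surface. Tubule epithelium makes part of this system itself, together with secreted antimicrobial proteins and with chemokines that call in neutrophils and monocytes, and in the collecting duct such proteins are known as a defence against bacteria that ascend the urinary tract.

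Levels are in TPM, an abundance of transcripts that is scaled for their length and sums to the same total in every sample. Sequencing depth cannot be read from TPM and is unknown here, no counting error is attached to a value, and a 0 is reported as listed at 0. Camk2d was at 123 to 141 TPM in intact samples and at 19.8 to 29.8 TPM in KO samples, as the labels say. The epithelial markers Krt18, Krt8, Cdh1 and Epcam were all at 697 TPM or more in every sample. Of the collecting duct principal cell markers, the water channel Aqp2 was at 1281 to 5502 TPM and the transcription factor Gata3 at 240 to 280 TPM, while Scnn1b (at most 0.39 TPM) and Elf5 (at most 0.14 TPM) were near 0. Of 7 leukocyte markers, Adgre1 and Tyrobp were listed at 0 in all samples and Ptprc reached 0.62 TPM, whereas Csf1r (8.88 to 25.7 TPM) and Cd68 (3.51 to 9.05 TPM) were present. Intercalated cell, proximal tubule, fibroblast and endothelial markers did not exceed 0.41 TPM in any sample.

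The promoters of C3, on which the set was selected, of Cd55, whose level varied most among KO clones after C3, and of the chemokine Cxcl1, which lay at opposite ends in the exon 8 KO clones, are shown as the 250 bases before the RefSeq start site on build GRCm38.p6, on the strand of the gene. Capitals mark the motif TTNNGNAA, which the C/EBP transcription factors are known to bind, in C3 and the kappaB motif of the NF-kappaB factors in Cxcl1. Both strands were searched.
C3 promoter (chr17:57228137-57228386, minus strand): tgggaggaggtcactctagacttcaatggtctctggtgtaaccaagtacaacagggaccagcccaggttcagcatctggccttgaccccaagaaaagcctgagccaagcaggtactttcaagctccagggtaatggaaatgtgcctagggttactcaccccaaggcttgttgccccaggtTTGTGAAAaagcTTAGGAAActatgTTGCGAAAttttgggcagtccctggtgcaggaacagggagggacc
Cd55 promoter (chr1:130462745-130462994, minus strand): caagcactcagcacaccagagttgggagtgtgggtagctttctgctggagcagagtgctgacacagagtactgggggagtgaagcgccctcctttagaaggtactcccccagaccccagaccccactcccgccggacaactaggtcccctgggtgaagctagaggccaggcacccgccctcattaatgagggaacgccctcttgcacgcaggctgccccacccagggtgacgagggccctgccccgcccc
Cxcl1 promoter (chr5:90890995-90891244, plus strand): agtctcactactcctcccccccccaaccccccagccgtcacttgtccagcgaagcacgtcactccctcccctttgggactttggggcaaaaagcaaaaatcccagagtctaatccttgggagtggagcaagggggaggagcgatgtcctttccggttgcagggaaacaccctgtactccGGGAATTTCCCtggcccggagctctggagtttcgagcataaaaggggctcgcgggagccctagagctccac

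The C3 promoter held TTNNGNAA at 3 places, from base -70 to -63, from -58 to -51 and from -45 to -38 before the start site. Of 32841 RefSeq promoter windows of the same length, 36.9% held the motif at least once and 2.62% held it at 3 or more places. The Cxcl1 promoter held a kappaB match from base -71 to -62, with a second match on the other strand shifted by 1 base, and 3.9% of the windows held kappaB. Neither motif, nor TATAAA (12.4% of windows) nor CCAAT (33.9%), occurred in the Cd55 window. Slpi, which was listed at 0 in 8 samples, also held TTNNGNAA at 3 places, so that number is not particular to C3 within the set. C1s1 held it at 2 places before the first of its start sites, and Lcn2 at 1 place, from base -216 to -209 on the other strand. These matches are of letters only and no binding was measured.

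C3, the component at which the complement routes meet, had the widest range among the 6 genes with a mean of at least 1 TPM. C3 (ENSMUSG00000024164, chr17:57203970-57228136 on GRCm38, minus strand) was at 105 TPM in the parental line, at 174 and 164 TPM in the samples of intact clone 1 and at 102 and 113 TPM in those of intact clone 2. It was at 44.0 TPM in KO clone 1 and at 15.0 TPM in KO clone 2, the exon 8 clones, and at 148, 137 and 151 TPM in KO clones 3, 4 and 5, the exon 9 clones. Both exon 8 clones lay below the other 8 samples, and the exon 9 clones lay within the range of the intact samples. The lowest intact sample was 2.31 times the higher exon 8 clone. KO clone 1 held 33.5% and KO clone 2 held 11.4% of the mean of the intact samples (131 TPM ± 34.8 SD, n = 5), and the exon 9 clones held 104% to 115% of it.

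The order of the lines for C3, from low to high, was KO clone 2, KO clone 1, parental, intact clone 2, KO clone 4, KO clone 3, KO clone 5 and intact clone 1, an 11.3-fold range. The parental line lay between the samples of intact clone 2 and was not apart from it. The exon 9 clones spanned 1.11-fold, as far as the samples of intact clone 2 (1.11-fold), so their order among themselves is within the spread of 1 line. The exon 8 clones differed from each other by 2.94-fold. On the log2(TPM + 1) scale the difference between exon 8 and intact means was -2.27, that between exon 9 and intact means was 0.18, and that between exon 9 and exon 8 means was 2.45. Over all KO clones C3 differed from intact by -0.80, a value that was -0.24 without KO clone 2. Among the 20000 genes with the highest mean TPM, the exon 8 difference of C3 was the 8th from the bottom (rank 8). These C3 values are those on which the genes were selected.

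Both exon 8 clones were also the lowest in Aqp2, at 1281 and 1618 TPM against 2856 TPM or more elsewhere. The exon 9 clones were at 3789, 2880 and 2856 TPM and the intact samples at 3773 to 5502 TPM. The Aqp2 difference from intact was -0.89 for KO (limma adjusted p = 0.565) and -0.44 for exon 9 KO (limma adjusted p = 0.761). The paper reports no significant decrease of this transcript. Of the other 7 principal cell markers only the vasopressin receptor gene Avpr2 was likewise lowest in both exon 8 clones, at 192 and 114 TPM against 222 TPM or more. Of all 20000 genes, 3.51% lay below the other 8 samples in both, and these clones chose the set. Hsd11b2 was lowest in KO clone 1 (11.5 TPM) and highest in KO clone 2 (115 TPM, against 43.1 TPM or less elsewhere), and Gata3, at 251 and 256 TPM, was inside the range of the other samples. The 8 markers summed to 4295 to 6042 TPM in intact and 1753 to 4380 TPM in KO samples, most of it Aqp2, and their part in the C3 values was not tested. In bulk RNA, fewer cells that express a gene and less of its RNA per cell cannot be told apart.

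**Figure D1:**
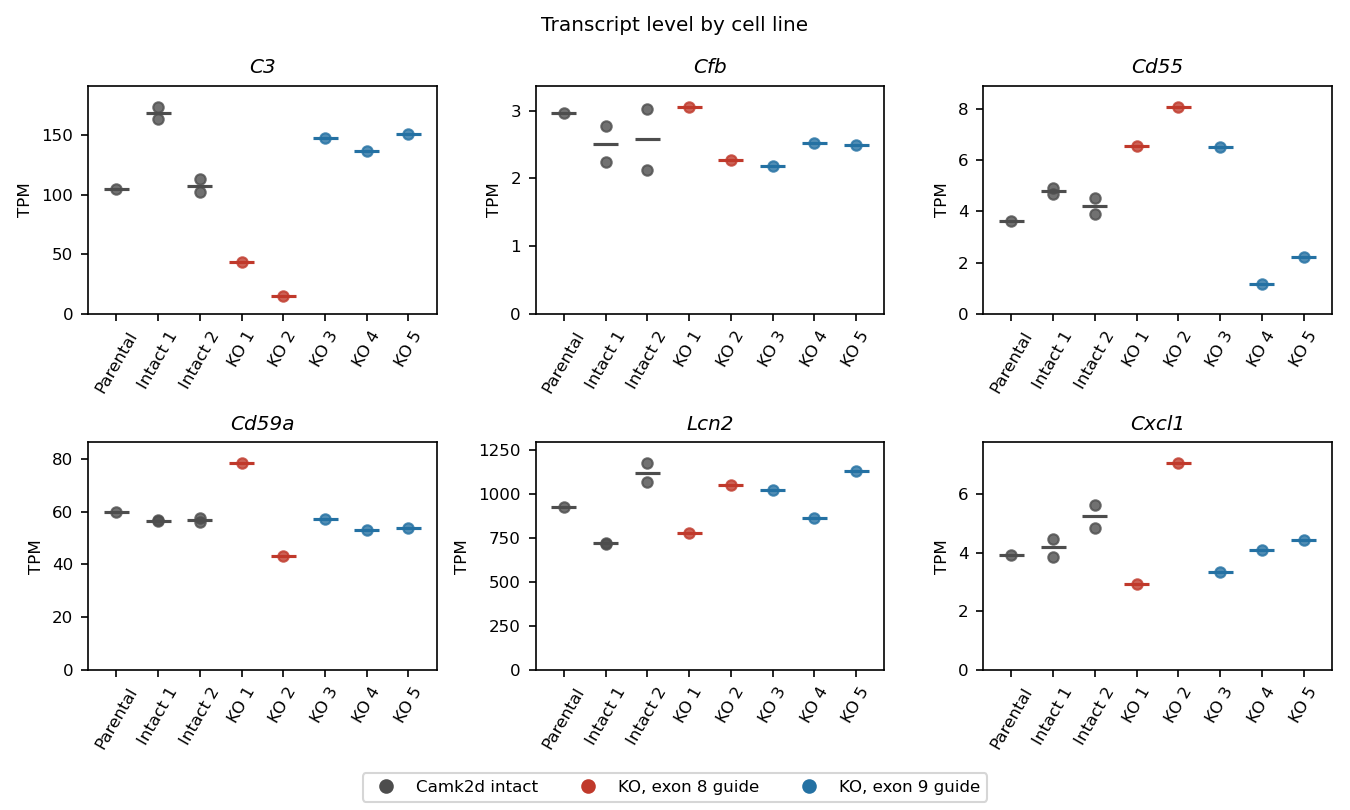
Level of the 6 expressed genes in TPM (linear axis from 0) by cell line, with 1 point per sample and a bar at the mean of each line. C3 was lowest in KO 1 and KO 2 (44.0 and 15.0 TPM), Cd55 was highest in them (6.57 and 8.09 TPM), and Cd59a and Cxcl1 were at opposite ends in these clones.

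By count, 702 of 20000 genes (3.51%) lay below the other 8 samples in both exon 8 clones, and C3 was the only 1 of the 6 tested genes among them. Above the other 8 samples were 1220 genes (6.1%), with Cd55 the only 1 of the 6. Since the exon 8 clones chose the set, nothing is read from these counts.

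The 6 genes whose pattern over the 8 lines lay nearest to C3, among 13046 others with a mean of at least 1 TPM, were Sprr2g, Gstt2, Marcksl1-ps4, Slfn2, Gm10451 and Krt23. Likeness was the root mean square (RMS) difference from C3 of log2(TPM + 1), each gene centred on its own mean, and ran from 0.447 for Sprr2g to 0.61 for Krt23. A gene with no variation at all would have had 1.1, and the median gene had 1.12. Sprr2g, a small proline-rich protein gene, was at 7.52 and 6.04 TPM in the exon 8 clones and at 22.6 to 42.9 TPM in the other lines. Gstt2, a glutathione S-transferase, was at 49.4 and 25.5 TPM in the exon 8 clones and at 75.8 to 103 TPM elsewhere. Krt23, a keratin, was at 54.3 TPM in KO clone 1, above KO clone 4 (47.3 TPM), and at 14.5 TPM in KO clone 2. Pearson's r with C3 over the 8 lines was 0.848 to 0.945 for the 6 genes, and the points share the 2 exon 8 lines that chose C3. Marcksl1-ps4 is annotated as a pseudogene, and its reads may be shared with its parent gene.

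The other complement and defence genes of the set were not among the nearest, so by that choice they lay further from C3. Their RMS differences from it were 1.07 for Cd59a, 1.11 for Cfb, 1.14 for Lcn2, 1.27 for Cxcl1 and 1.57 for Cd55. Cd59a thus ranked 3420 and Cd55 ranked 12747 among the 13046 genes compared. The values of Cd59a, Cfb and Lcn2 were near that of a gene with no variation (1.1). These distances use the C3 values that chose the genes, so nothing is read from the ranks.

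**Figure D2:**
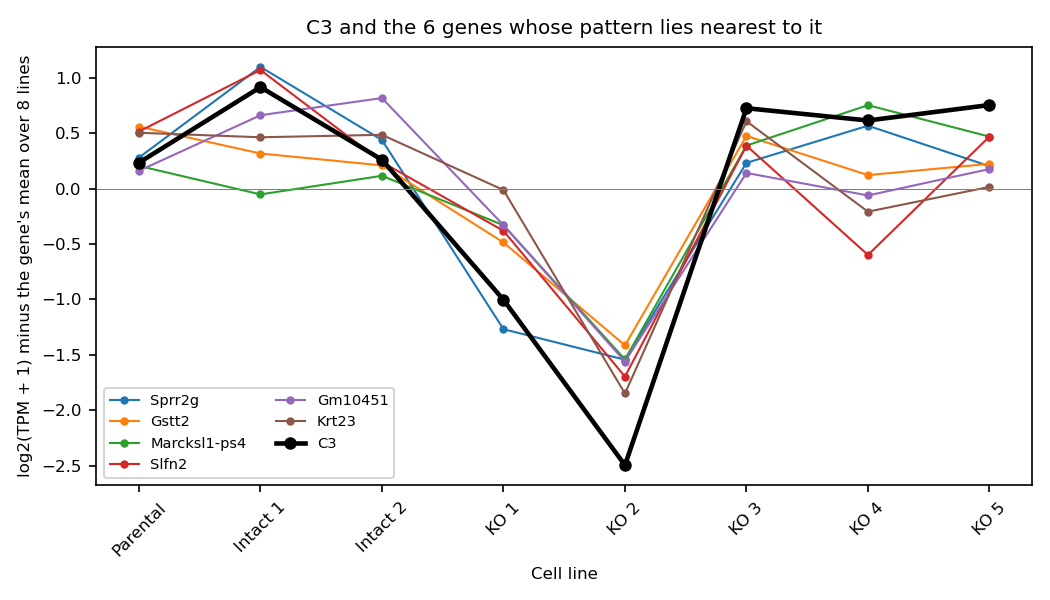
C3 (black) and the 6 genes nearest to it, as log2(TPM + 1) minus the mean of each gene over 8 cell lines, with the samples of an intact clone averaged. All 7 curves have their lowest point at KO 2, and C3 goes further down there than the other 6, whose RMS difference from C3 was 0.447 to 0.61.

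Cfb, the protease that joins with C3 to form the alternative-pathway convertase, was low and even. Cfb (ENSMUSG00000090231, chr17:34856374-34862518, minus strand) was at 2.97 TPM in the parental line, at 2.77 and 2.25 TPM in intact clone 1 and at 2.13 and 3.02 TPM in intact clone 2. In KO clones 1 to 5 it was at 3.06, 2.28, 2.18, 2.53 and 2.50 TPM. The groups overlapped, and the whole range over lines (1.4-fold) was no wider than that between the samples of intact clone 2 (1.42-fold). Of the 50-base windows of Cfb transcripts, 27.0% occur in no other gene, and most of the rest are shared with the overlapping gene Gm20547, to which at most 0.02 TPM was assigned in any sample, so the Cfb level depends on how reads were divided between them.

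C1s1, a protease of the classical pathway, was listed at 0 in 7 samples and at 0.02 TPM in 1 sample of intact clone 1, 0.09 TPM in KO clone 2 and 0.03 TPM in KO clone 3. It shares sequence with C1s2, and 64.9% of its windows occur in no other gene.

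Cd55, or decay-accelerating factor, takes apart the C3 convertases on host membranes, and it varied most among KO clones after C3. Cd55 (ENSMUSG00000026399, chr1:130439027-130462744, minus strand) was at 3.62 TPM in the parental line, at 4.69 and 4.93 TPM in intact clone 1 and at 3.89 and 4.54 TPM in intact clone 2. It was at 6.57 and 8.09 TPM in the exon 8 clones, and at 6.51, 1.18 and 2.23 TPM in KO clones 3, 4 and 5. KO clones 1, 2 and 3 lay above all intact samples and KO clones 4 and 5 below them, so no KO clone was inside the intact range. The coefficient of variation was 12.8% in intact and 61.5% in KO samples. The exon 9 clone KO 3 was nearly level with KO clone 1, so the split does not run between the guides. A gene on the other strand, Gm16083, overlaps Cd55, and 90.9% of Cd55 windows occur in no other gene.

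Cd59a, which blocks the assembly of the membrane pore, was the most even of the 6 genes in intact cells. Cd59a (ENSMUSG00000032679, chr2:104095801-104115354, plus strand) was at 59.8 TPM in the parental line, at 56.3 and 57.0 TPM in intact clone 1 and at 56.1 and 57.5 TPM in intact clone 2, a coefficient of variation of 2.61%. KO clone 3 was inside this range at 57.2 TPM, and KO clones 4 and 5 were just below it at 53.2 and 53.8 TPM. The exon 8 clones lay on either side, KO clone 1 highest of the 10 samples at 78.4 TPM and KO clone 2 lowest at 43.2 TPM, a 1.81-fold gap.

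Lcn2, lipocalin-2, binds the iron carriers of bacteria and is known as a urinary marker of tubule injury. It was the most abundant of the 9 genes, rank 88 of all genes by mean TPM. Lcn2 (ENSMUSG00000026822, chr2:32384633-32388252, minus strand) was at 926 TPM in the parental line, at 717 and 725 TPM in intact clone 1 and at 1178 and 1069 TPM in intact clone 2. In KO clones 1 to 5 it was at 778, 1051, 1026, 864 and 1134 TPM, all between the lowest and the highest intact sample. Its level in the exon 8 clones was 99.1% of the intact mean, where that of C3 was 22.4%.

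Cxcl1, a chemokine that attracts neutrophils, was at a few TPM. Cxcl1 (ENSMUSG00000029380, chr5:90891241-90893115, plus strand) was at 3.92 TPM in the parental line, at 4.48 and 3.87 TPM in intact clone 1 and at 5.63 and 4.85 TPM in intact clone 2. In KO clones 1 and 2 it was at 2.93 and 7.06 TPM, the lowest and the highest of the 10 samples, and in KO clones 3, 4 and 5 at 3.36, 4.10 and 4.42 TPM. The exon 8 clones thus differed 2.41-fold in Cxcl1, where the 5 intact samples of 3 lines spanned 1.45-fold.

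Ccl2, a chemokine for monocytes, was listed at 0 in all 10 samples. Slpi, a secreted inhibitor of leukocyte proteases, was at 0.20 TPM in the parental line and 0.16 TPM in 1 sample of intact clone 2 and was listed at 0 in the other 8. With C1s1, these were the 3 genes outside the 20000 tested.

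That KO clones 1 and 2 were at opposite ends of the 8 lines in Cd59a and in Cxcl1 was noticed after the values were seen. It holds for 2 of the 5 tested genes other than C3, which was selected for being low in both, and for 10.7% of the 20000 genes. The coefficient of variation was larger in KO than in intact samples for 3 of the same 5 genes (Cd55, Cd59a and Cxcl1) and for 70.7% of the 13047 genes with a mean of at least 1 TPM. The KO samples are 5 lines and the intact samples 3, so the SDs of both groups cover different numbers of lines.

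The question of the study was what changes when Camk2d is lost. The 5 KO and 5 intact samples were compared on log2(TPM + 1) by limma over the 20000 genes, with Benjamini-Hochberg adjustment and a threshold of 0.05. None of the 5 genes tested other than C3 changed, and none had an unadjusted p under 0.05, where 1398 of all genes (6.99%) did. When the samples of an intact clone were treated as related, 762 genes did after averaging them and 745 did when the line entered as a random effect. Only Camk2d itself (0.005% of genes) passed the adjusted threshold, and pseudocount 0.1, leaving out the parental sample or leaving out KO clone 2 each gave 2 genes. The study used another test, edgeR on expected counts. It reported a small number of changed transcripts, with gasdermin genes among those that fell. No KO and intact samples were without overlap for any of the 6 genes, where 1.64% of all genes were. The KO minus intact difference in Cd55 was -0.04 (SE 0.36, 95% interval -0.85 to 0.76, limma adjusted p = 0.992), and without KO clone 4 it was 0.27. That in Lcn2 was 0.09 (SE 0.16, interval -0.26 to 0.44, limma adjusted p = 0.922). The differences in Cfb (-0.05), Cd59a (-0.03) and Cxcl1 (-0.08) had limma adjusted p of 0.948, 0.974 and 0.941. Two-sided exact permutation tests over the 252 arrangements of samples gave p of 0.627 to 0.889 for the 5 genes, where the smallest possible p is 0.00794. The intervals for Cfb (-0.30 to 0.21), Cd59a (-0.30 to 0.24) and Cxcl1 (-0.49 to 0.33) give the sizes of difference that these samples allow. A p that misses the threshold does not show that the levels were equal.

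The exon 9 clones were then compared with the intact samples in a fit of 3 groups, which leaves out of the contrast the clones whose C3 chose the genes. The exon 8 clones still entered the estimate of the spread, which the 3 groups share. None of the 5 genes passed by limma, and none had an unadjusted p under 0.05, where 1099 of all genes (5.5%) did (711 after such averaging, 676 with the random effect). Of all genes 0.005% passed, again Camk2d alone, and this count was 3 without the parental sample, 6 without KO clone 3, 11 without KO clone 4 and 8 without KO clone 5. The largest difference was in Cd55, at -0.50 (SE 0.33, interval -1.24 to 0.24, limma adjusted p = 0.953). It was -1.0 without KO clone 3 and -0.11 without KO clone 4, so it rests on which exon 9 clone is kept. Lcn2 differed by 0.15 (SE 0.19, interval -0.27 to 0.57, limma adjusted p = 0.995). Cfb, Cd59a and Cxcl1 differed by -0.09, -0.07 and -0.16, with limma adjusted p of 1, 1 and 0.998. In a fit of the 8 samples alone these differences stayed, and 1697 genes had an unadjusted limma p under 0.05. The SE of Cd59a was then 0.04 in place of 0.15 (limma adjusted p = 0.673). That of Cxcl1 was 0.13 in place of 0.22 (limma adjusted p = 0.785). The SEs of Cfb, Cd55 and Lcn2 were 0.12, 0.35 and 0.19 in that fit. The KO and exon 9 KO comparisons share the intact samples. The median difference of the 5 genes was -0.04 for KO and -0.09 for exon 9 KO against intact, beside 0.02 and 0.01 for all genes tested.

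**Figure D3:**
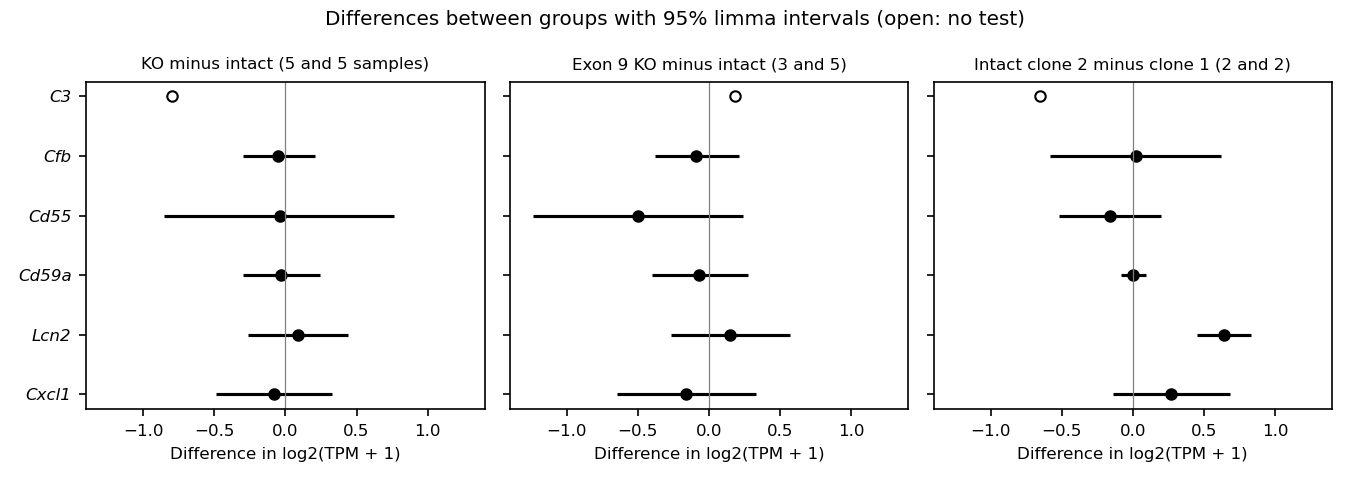
Difference in log2(TPM + 1) between groups for the 6 expressed genes, with 95% limma intervals as lines and open points for C3, for which no test was made. The intervals of Cfb, Cd55, Cd59a, Lcn2 and Cxcl1 include 0 for KO and exon 9 KO against intact, while that of Lcn2 (0.45 to 0.83) lies away from 0 between the intact clones.

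Intact clones 1 and 2, both with an unmutated Camk2d, were compared to see how far 2 control lines differ. The C3 values of these samples were part of the selection and are given without a test. C3 was lower in both samples of intact clone 2 than in both of intact clone 1, with a difference in means of -0.65 and a ratio of 0.634. Lcn2 was higher in intact clone 2 by 0.64 (SE 0.06, interval 0.45 to 0.83), or 1.56-fold, also without overlap. Its unadjusted limma p was 0.00163 and its adjusted p was 0.0975, which misses the threshold. By limma 0 of 20000 genes (0%) passed in this comparison, although 3394 genes, among them 1 of the 5 tested (Lcn2), had an unadjusted p under 0.05, which is 17% of all genes. With the KO samples as a further group in the fit 1314 genes did, and Lcn2 then had an SE of 0.17 (adjusted p = 0.424). With genes of a mean of at least 1 TPM only, 249 genes passed, and so did Lcn2 (adjusted p = 0.0378) with the same difference. Over all alternatives the adjusted p of Lcn2 ran from 0.0378 to 0.424. Cxcl1 differed by 0.27 (interval -0.14 to 0.68), Cd55 by -0.16 (interval -0.52 to 0.20), Cfb by 0.02 (interval -0.58 to 0.62) and Cd59a by 0.0048 (interval -0.08 to 0.09), with limma adjusted p of 0.44, 0.598, 0.997 and 0.971. The spread in this fit comes only from the differences between samples within each of the 2 clones.

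C3 and Lcn2 thus went opposite ways between the intact clones. The ratio of Lcn2 to C3 TPM was 4.11 and 4.44 in the samples of intact clone 1 and 11.6 and 9.49 in those of intact clone 2, 8.85 in the parental line and 6.32 to 7.49 in the exon 9 clones. In the exon 8 clones it was 17.7 and 70.2. The divisor there is the C3 level on which the set was selected. Lcn2 itself, at 778 and 1051 TPM in these clones, was inside the range of the intact samples (717 to 1178 TPM). Nothing further is read from the ratios of the exon 8 clones.

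The other complement genes were sparse in these cells. Of 20 initiating components, 9 were among the genes tested, 8 were listed at 0 in all samples, and only Masp2, a protease of the lectin pathway (0.94 to 2.57 TPM), and C4a (0.42 to 2.36 TPM) had a mean of at least 1 TPM. Of the 7 components of the terminal pore, C8g was at 4.52 to 6.56 TPM and the other 6 were listed at 0. Of 6 complement receptors none reached a mean of 1 TPM, and the highest, Itgb2, did not exceed 0.64 TPM. None of these genes passed by limma in any of the 3 comparisons. At an unadjusted p under 0.05 were 3 initiating components between the intact clones and 1 receptor in exon 9 KO clones, beside shares of 17% and 5.5% over all genes. The median KO difference was 0.13 for the 9 initiating components, beside 0.02 for all genes.

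A few regulators of complement were better expressed. Of the 16 regulators listed, 4 had a mean of at least 1 TPM. A mean under 0.1 TPM was found for 9, of which 4 were listed at 0 in all samples. Clu, or clusterin, a secreted inhibitor of the pore, was at 165 TPM in the parental line, 279 and 276 TPM in intact clone 1 and 387 and 330 TPM in intact clone 2. In KO clones 1 and 2 Clu was at 114 and 355 TPM, a 3.1-fold gap, and in the exon 9 clones at 216 to 228 TPM. Cr1l, which regulates C3 convertases on rodent cells, was at 88.8 to 107 TPM in all samples. Of 16 regulators 7 were tested, and 0 rose and 0 fell by limma in each comparison, with 1, 1 and 2 at an unadjusted p under 0.05 for KO, exon 9 KO and the intact clones, where the shares over all genes were 6.99%, 5.5% and 17%. These shares are the background of the counts at an unadjusted p for the lists below as well.

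Among 25 secreted antimicrobial genes, 24 were in the table and 10 were tested. Wfdc2, a protease inhibitor family gene of epithelia and the most abundant of them, was at 1970 to 2233 TPM in intact and 1263 to 1903 TPM in KO samples, the only 1 of the 10 without overlap (1.64% of all genes). Its KO difference of -0.32 (SE 0.11) had a limma adjusted p of 0.607. Lbp, which carries bacterial lipopolysaccharide, followed the order of Lcn2 between the intact clones, with 22.8 and 23.9 TPM in clone 1 and 54.7 and 54.1 TPM in clone 2 (limma adjusted p = 0.0652). By limma 0 of the 10 rose and 0 fell in any comparison, with 2, 0 and 3 at an unadjusted p under 0.05, and the median KO difference was -0.17.

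Of 34 other chemokines and cytokines 23 were tested, and 0 rose and 0 fell by limma, with 2, 0 and 6 at an unadjusted p under 0.05, beside 6.99%, 5.5% and 17% of all genes. Csf1, a growth factor of macrophages, was at 27.0 to 32.9 TPM in intact and 19.1 to 25.8 TPM in KO samples, the only 1 of the 23 without overlap beside 1.64% of all genes (KO difference -0.28, SE 0.09, limma adjusted p = 0.57). Among 6 receptors of the proteins studied only Lrp2, an endocytic receptor that takes up lipocalin-2, was expressed (6.51 to 14.9 TPM), and Cxcr2, the receptor of Cxcl1, did not exceed 0.05 TPM. Of 38 genes of NF-kappaB, IL-6 and C/EBP signalling 37 were tested and none passed in any comparison, with 4, 0 and 4 at an unadjusted p under 0.05 and a median KO difference of 0.01. Traf6 was the only 1 of the 37 whose KO and intact samples did not overlap, beside 1.64% of all genes. Cebpb, a C/EBP factor, was at 328 to 391 TPM and the NF-kappaB subunit Rela at 194 to 237 TPM, and Nfkbia, an inhibitor of NF-kappaB, was at 347 TPM in KO clone 2 and at 384 to 461 TPM in the other samples.

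**Figure D4:**
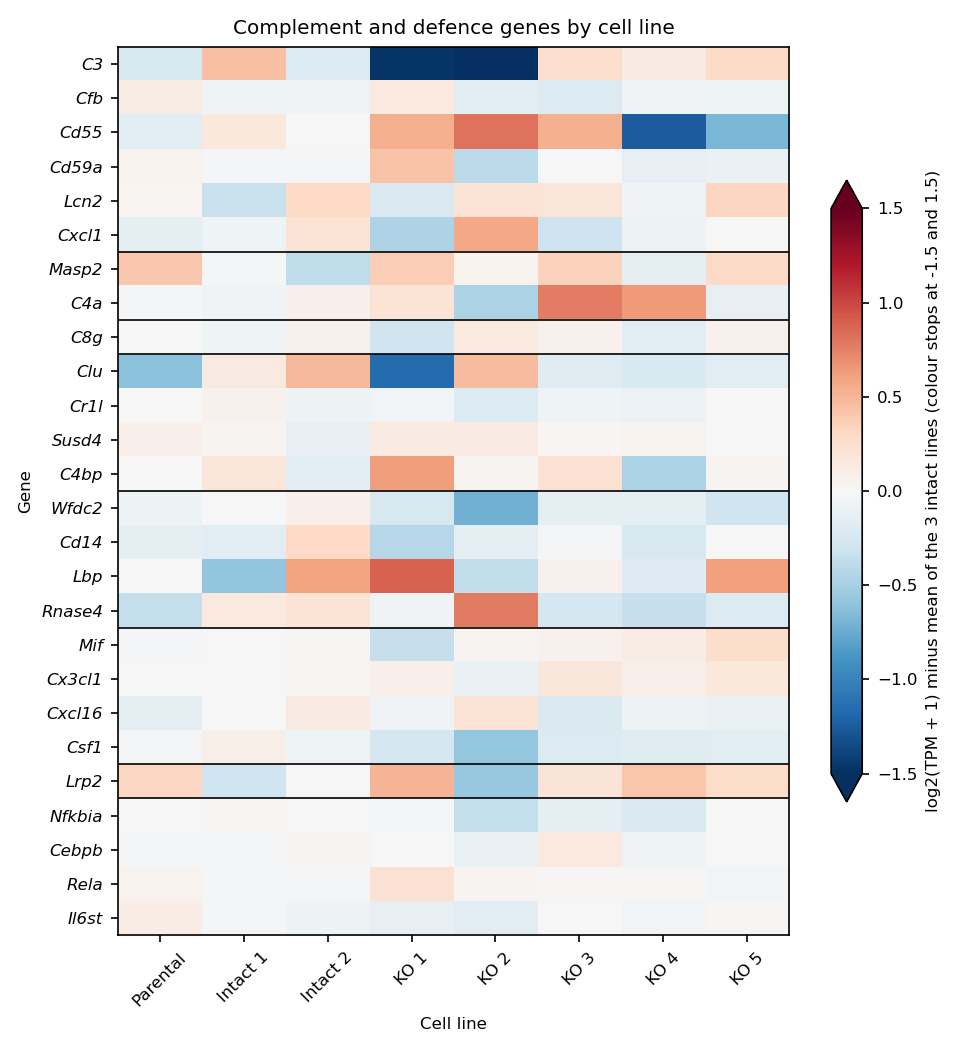
Colour map of log2(TPM + 1) minus the mean of the 3 intact lines for the 6 genes and the named genes of the complement, defence and signalling lists with a mean of at least 1 TPM (rows, lists divided by lines, cell type markers not drawn) in 8 cell lines (columns), with the colour ending at -1.5 and 1.5. The darkest cells drawn are C3 in KO 1 (-1.47) and KO 2 (-2.96), followed by Cd55 in KO 4 (-1.25) and Clu in KO 1 (-1.15), while the NF-kappaB and C/EBP rows are pale throughout.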

How the data were processed

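RNA of mpkCCD cells was made into full-length amplified cDNA (SMART-Seq v4), tagged with Nextera XT and sequenced as 50-bp pairs. The authors aligned the reads with STAR and quantified genes with RSEM, both also named in the submitters' processing notes, and deposited TPM per Ensembl gene for each sample. All 10 columns were used. Groups came from the labels, and the guide of each KO clone from the study's text. log2(TPM + 1) of the 20000 genes with the highest mean TPM was fitted with limma 3.58.1 in R 4.3.3 (lmFit, eBayes with trend), tested first on simulated data. The simulated samples had the spread between samples of an intact clone and none between lines. They therefore do not show how the test behaves when clones differ. No test is given for C3, including that between the intact clones, which had been planned. Differences on this scale understate changes of low genes. Single genes were also compared by exact permutation (scipy 1.17.1). Named genes are the 9 genes, Camk2d, the up to 4 genes of highest mean TPM per list, any list gene past the threshold, and the 6 nearest to C3. List genes whose KO and intact samples did not overlap, and some cell type markers near 0, are named besides. The genes and lists were chosen with earlier results of these data known. Gene positions and shared 50-base windows are from GENCODE M21 on GRCm38, another build than that of the authors' annotation. Promoters are from RefSeq (GRCm38.p6), with 7 of 9 genes matched. Alternatives were pseudocounts of 0.1 and 0.5, other filters (a mean of at least 1 TPM, all genes above 0), rescaling, quantile normalization, limma without trend or with robust moderation, 1 value per line, line as random effect, other sample sets, and leaving out each sample.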

Additional observations from a re-analysis of the deposited data

Results flagged for a closer look

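C3 differed between KO clones of the 2 guides by 2.45 on the log2(TPM + 1) scale (exon 9 minus exon 8). It is listed because every exon 8 clone lay below the intact mean (44.0 and 15.0 TPM against 131 TPM) and every exon 9 clone above it (148, 137 and 151 TPM). This difference was not tested, since these values chose the genes. No sample of the intact or KO group stood far enough from the rest of its group to be listed for any of the 6 expressed genes or Camk2d, in 14 groups checked.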

How the results depend on the processing

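No paired analysis was possible because the replicate numbers of KO and intact samples were given in accession order or name separate clones. None of the 5 genes tested other than C3 passed the threshold in KO or exon 9 KO against intact under any alternative run. The number of genes past the threshold was 1 for KO against intact, 2 with pseudocount 0.1, and 1 to 2 when 1 sample was left out. For exon 9 KO against intact it was 1, and 1 to 11 when 1 sample was left out. For the intact clones it was 0, and 249 with a mean of at least 1 TPM, 11 by limma without trend, 28 with KO as a further group and 0 when 1 sample was left out. Between the intact clones, Lcn2 (adjusted p = 0.0378) passed only with a mean of at least 1 TPM. The sign of the KO difference turned in Cd55 without KO clone 4 (0.27) or KO clone 5 (0.13), in Cd59a without KO clone 2 (0.06) and in Cxcl1 without KO clone 1 (0.02). Between the intact clones it turned in Cfb without the second sample of clone 1 (-0.09) or of clone 2 (-0.16), and in Cd59a without the first sample of clone 1 (-0.0043) or the second of clone 2 (-0.01). With 1 sample left out, the KO difference ran from -0.25 to 0.27 in Cd55, from -0.15 to 0.06 in Cd59a from -0.24 to 0.02 in Cxcl1 and from 0.0045 to 0.18 in Lcn2 (0.06 to 0.25 for exon 9 KO), and the intact clones differed by -0.16 to 0.20 in Cfb. The causes of these turns were not tested, and no turned value was past the threshold. The C3 difference of exon 9 KO from intact (0.18) was 0.29, 0.27 or 0.10 without the first or second sample of intact clone 1 or the first of intact clone 2. Over all KO clones the C3 difference (-0.80) was 0.18 with the exon 9 clones alone. TPM carry no depth, so the counting error of Cfb, Cd55 and Cxcl1, all under 10 TPM, is unknown.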
